A study of Mus musculus with 16 samples.

Results

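The 42 genes described here are type I interferon-stimulated genes, taken as a list of symbols and matched through their Ensembl identifiers to the count table of an RNA-seq study of epididymal white adipose tissue (eWAT), the visceral fat depot of the male mouse. All 42 listed symbols were found among the 55573 genes of the table, and all 42 passed the filter on low counts that kept 20822 genes for testing. The rule used gene names only and no measured value, but the list was chosen with earlier results of these data known.

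The libraries came from 16 C57BLKS/J-db/db males, which lack a working leptin receptor and become obese and diabetic. All mice received an AAV8 vector at 4 weeks of age, carrying the CB7 promoter before either eGFP (AAV8-eGFP, the control) or FLAG-tagged LRG1 (AAV8-LRG1-FL), a secreted glycoprotein, and tissue was taken at week 7 or week 10 of age from 4 mice per vector and week. Mice were assigned to a vector by whole cages, so cage and vector cannot be told apart, and uninjected or lean mice were not analysed here. The question put to the data was whether LRG1 overexpression changed gene expression of the depot at either age.

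Type I interferons are secreted antiviral cytokines that bind the receptor IFNAR1 and IFNAR2 and act through the kinases TYK2 and JAK1. The signal reaches a transcription factor complex that includes STAT2 and IRF9 and binds the interferon-stimulated response element (ISRE) in the promoters of its target genes. The targets sense viral RNA, degrade or sequester it, modify proteins with the ubiquitin-like ISG15, and feed back on the pathway itself. In adipose tissue both adipocytes and resident leukocytes can express such genes, and interferon-gamma induces a part of them too.

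Promoter sequences are shown first, for members of the role groups whose sequence carries the motif the family is named for, and for 1 member without it. A RefSeq promoter window of GRCm38.p6, from 250 bases before the annotated start to 50 after it, was at hand for 31 of the 42 members, in 38 windows. Printed below are the 200 bases before the start, 5′ to 3′ on the strand of the gene, with matches to the ISRE core GAAANNGAAA, or its reverse complement TTTCNNTTTC, in capitals. Isg15 lies on the minus strand with its stretch at chr4:156200819-156201018, Ifit1 on the plus strand at chr19:34640689-34640888, Ifit3 at chr19:34583329-34583528 and Ifit3b at chr19:34607757-34607956, both on the plus strand. Oas1a is on the minus strand at chr5:120907526-120907725, Oas1g on the minus strand at chr5:120887614-120887813, Phf11b on the minus strand at chr14:59341331-59341530, Bst2 on the minus strand at chr8:71537473-71537672 and Oasl1 on the plus strand at chr5:114923040-114923239.
Isg15: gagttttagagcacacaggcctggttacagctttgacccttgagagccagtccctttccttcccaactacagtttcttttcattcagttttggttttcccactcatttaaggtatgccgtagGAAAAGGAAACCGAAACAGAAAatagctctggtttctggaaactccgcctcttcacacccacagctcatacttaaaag
Ifit1: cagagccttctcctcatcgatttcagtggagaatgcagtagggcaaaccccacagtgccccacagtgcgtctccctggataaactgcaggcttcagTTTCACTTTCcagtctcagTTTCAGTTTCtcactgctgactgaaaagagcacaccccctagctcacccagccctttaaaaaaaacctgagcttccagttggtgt
Ifit3: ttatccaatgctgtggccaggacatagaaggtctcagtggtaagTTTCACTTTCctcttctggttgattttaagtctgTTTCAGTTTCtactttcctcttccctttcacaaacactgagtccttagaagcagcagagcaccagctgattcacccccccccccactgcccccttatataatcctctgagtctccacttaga
Ifit3b: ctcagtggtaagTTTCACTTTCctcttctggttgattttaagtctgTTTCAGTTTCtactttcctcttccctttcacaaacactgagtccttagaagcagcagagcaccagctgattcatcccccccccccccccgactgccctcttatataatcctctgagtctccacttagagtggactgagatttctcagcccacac
Oas1a: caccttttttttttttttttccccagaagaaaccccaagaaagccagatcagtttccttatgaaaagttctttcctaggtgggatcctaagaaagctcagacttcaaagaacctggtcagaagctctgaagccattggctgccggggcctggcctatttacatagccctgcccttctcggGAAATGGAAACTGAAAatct
Oas1g: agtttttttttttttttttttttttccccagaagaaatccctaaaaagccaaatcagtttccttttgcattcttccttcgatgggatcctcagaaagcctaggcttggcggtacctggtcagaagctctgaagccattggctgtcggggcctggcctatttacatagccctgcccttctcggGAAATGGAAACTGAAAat
Phf11b: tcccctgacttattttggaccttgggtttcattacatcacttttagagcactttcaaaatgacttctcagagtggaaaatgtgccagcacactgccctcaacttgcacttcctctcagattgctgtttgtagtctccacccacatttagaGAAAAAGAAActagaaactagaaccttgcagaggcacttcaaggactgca
Bst2: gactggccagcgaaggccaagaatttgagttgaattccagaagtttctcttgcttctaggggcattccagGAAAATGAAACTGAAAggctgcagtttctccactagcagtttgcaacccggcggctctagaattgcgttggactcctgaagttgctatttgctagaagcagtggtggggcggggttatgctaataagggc
Oasl1: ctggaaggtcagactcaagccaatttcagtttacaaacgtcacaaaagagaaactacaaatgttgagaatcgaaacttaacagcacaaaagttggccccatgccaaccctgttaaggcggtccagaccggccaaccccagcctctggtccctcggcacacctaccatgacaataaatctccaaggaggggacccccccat
Overlapping ISRE matches run together in Isg15, Oas1a, Oas1g and Bst2, Ifit1, Ifit3 and Ifit3b hold spaced pairs, and Phf11b holds a single match. Ifit3 and Ifit3b share the spaced pair at different distances from their starts, and Oas1a and Oas1g share the pair next to the start. Oasl1 holds no match in the printed stretch, which says only that these letters are not in this window.

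An ISRE match on either strand was found in 14 of the 38 member windows, or 36.8%, and in 3.44% of the 32851 mouse promoter windows. The 14 windows belong to 13 genes, namely Bst2, Eif2ak2, Ifih1, Ifit1, Ifit3, Ifit3b, Isg15, Oas1a, Oas1g, Oas3, Phf11b, Rsad2 and Trim30a. The palindromic core TTCNNNGAA of the gamma-activated sequence (GAS) was found in 18.4% of member windows and 8.3% of all windows, and in Bst2 it overlaps an ISRE match. A match is a description of the sequence and not a binding site shown by these data.

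**Figure D1:**
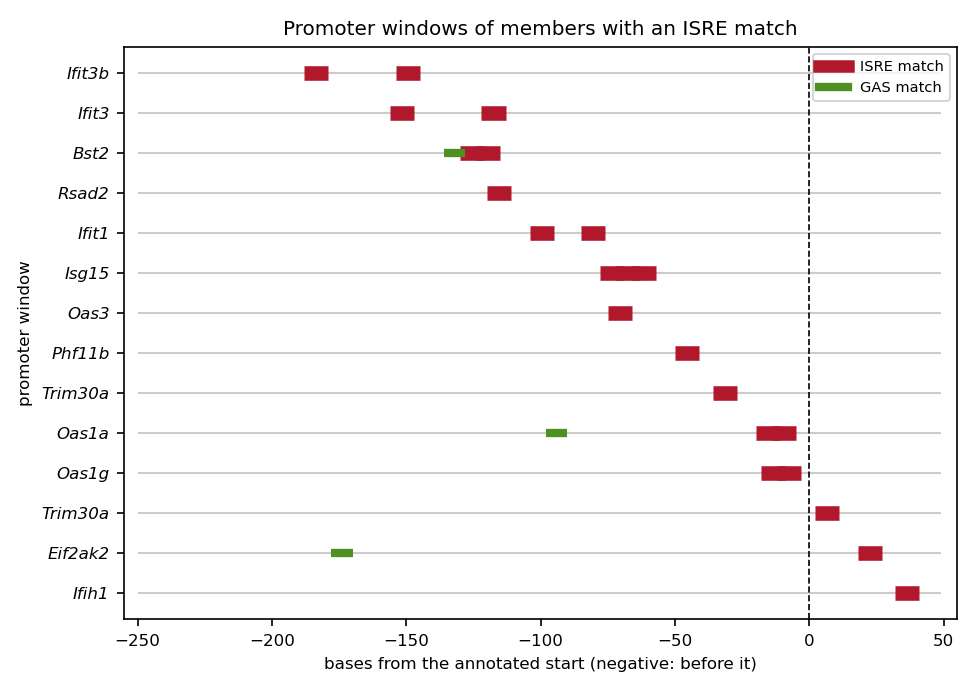
Positions of ISRE matches (red) and GAS matches (green) in the 14 promoter windows of members that hold an ISRE match, on an axis of bases from the annotated start, each grey line 1 window of 250 bases before and 50 after it. ISRE matches of 10 genes lie only before the start, those of Eif2ak2 and Ifih1 lie after it, and Trim30a has 1 window of each kind.

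Library totals ran from 45376227 to 67539937 counts, with a median of 59851918.5, and levels are given as CPM, read counts divided by the TMM-scaled library total in the usual per-megaread unit. Lrg1 itself stood at 86.2 to 115 CPM in eGFP libraries and 286 to 624 CPM in LRG1 libraries, in accord with the vector label of every library. It does not check the week labels. Markers of adipocytes (Adipoq, Plin1 and 8 others) summed to 7830 to 19567 CPM and those of epididymal epithelium to at most 1.25 CPM. The eGFP libraries of week 10 differed among themselves: replicates 1 and 3 had a mean log2 CPM of 7.30 and 7.35 over 12 pan-leukocyte markers, against 6.02 and 6.38 in replicates 2 and 4. In 14 of the 42 members replicates 1 and 3 both lay above replicates 2 and 4, and in 14 both lay below, beside 30.6% and 31.5% of all tested genes. Counts for week 10 are therefore also given without those 2 libraries.

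Interferon-stimulated genes as a list were lower in LRG1 than in eGFP mice at week 7, and few of them differed at week 10. At week 7, 35 of the 42 members fell, 0 rose and 7 were not called at an edgeR adjusted p below 0.01, where 10.7% of all tested genes were called lower and 7.37% higher. The median log2 fold change of the members was -1.02, beside 0.01 over all tested genes. In 38 members all 4 LRG1 libraries lay below all 4 eGFP libraries and in 1 member, Isg20, all lay above, which was the case for 19.4% and 18.6% of all tested genes. At week 10, 5 members fell, 0 rose and 37 were not called, where 5.24% of all tested genes were called lower and 3.66% higher. The median log2 fold change at week 10 was -0.19, and 9 members did not overlap between the groups, all lower in LRG1, beside 10.1% of all tested genes lower and 9.96% higher. The 5 members that fell at both weeks were Oasl1, Parp12, Sp100, Lgals3bp and Epsti1.

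**Figure D2:**
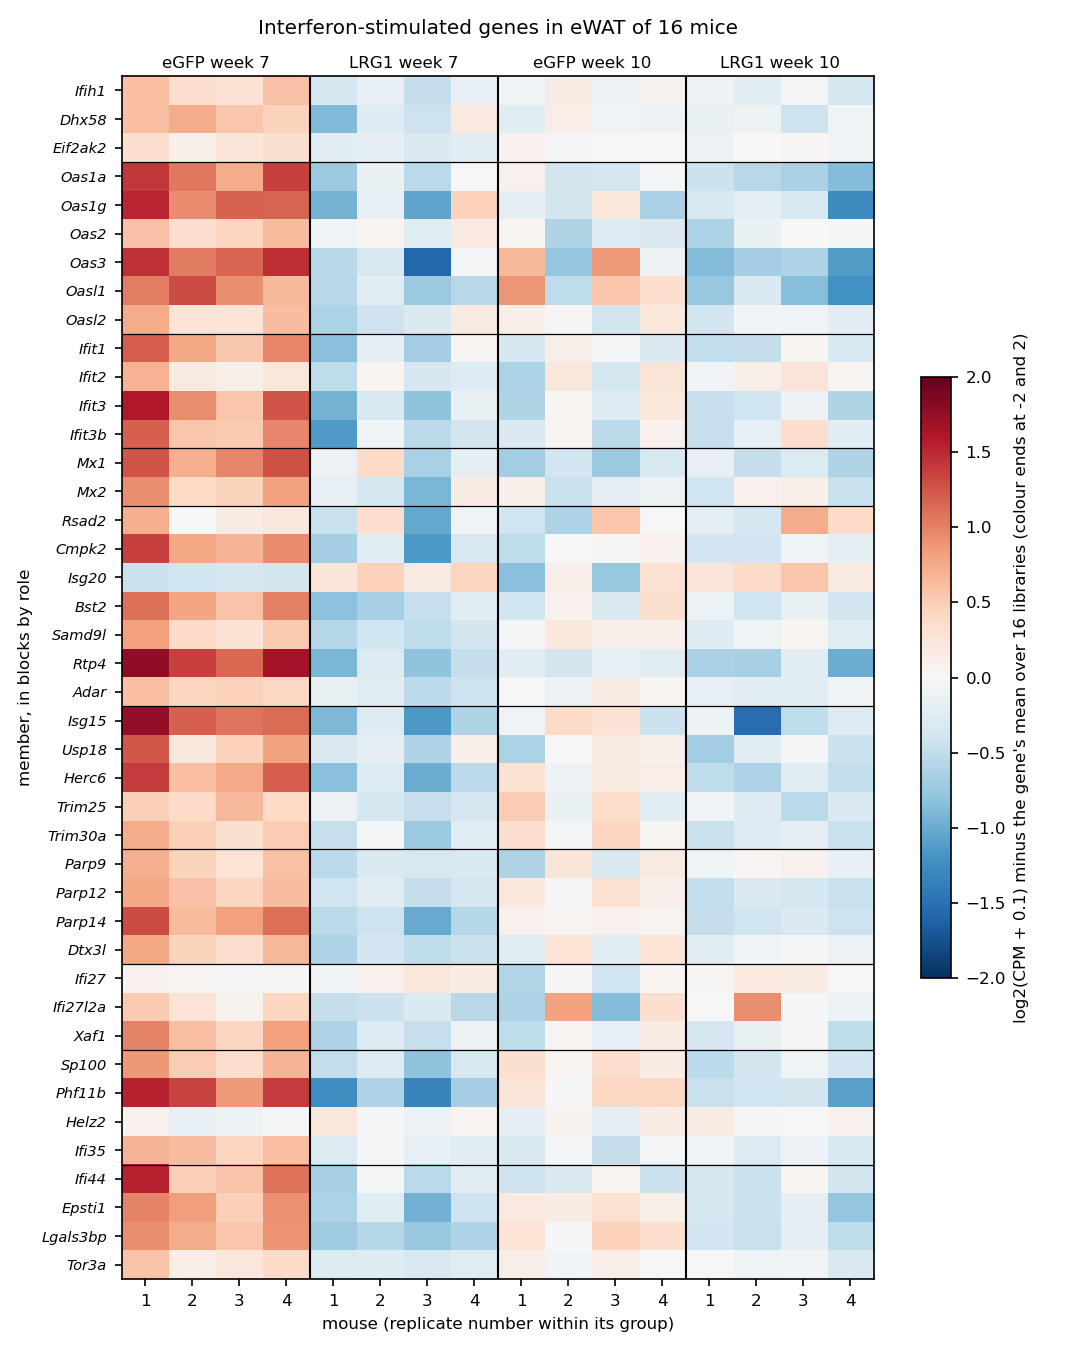
Level of each of the 42 members (rows, in blocks by role) in each of the 16 libraries (columns, 4 per group, numbered by replicate), as log2(CPM + 0.1) minus the mean of the gene over the 16 libraries. The 4 eGFP libraries of week 7 are the reddest columns for most members, and Isg20, Ifi27 and Helz2 are rows without that pattern.

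The mean log2 CPM over the 42 members shows the order of the groups. It was 4.66, 4.29, 4.22 and 4.47 in the 4 eGFP libraries of week 7 and 3.19, 3.52, 3.09 and 3.51 in the LRG1 libraries of that week. At week 10 it was 3.59, 3.66, 3.69 and 3.75 in eGFP and 3.41, 3.46, 3.60 and 3.33 in LRG1 libraries. The eGFP libraries of week 7 stood above all others, while eGFP and LRG1 libraries of week 10 overlapped.

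RNA sensors and the antiviral kinase all fell at week 7. Eif2ak2 encodes PKR, which halts translation on binding double-stranded RNA, and had the smallest adjusted p of the 3. Its levels at week 7 were 70.7, 59.8, 66.5 and 69.9 CPM in eGFP and 47.8, 49.4, 45.8 and 48.3 CPM in LRG1 libraries. The ranges did not overlap, and the level fell by 0.48 on the log2 scale (SE 0.06, adjusted p = 6.5e-05). Ifih1, the cytosolic RNA sensor MDA5, had 61.8, 51.4, 49.4 and 61.2 CPM in eGFP and 32.0, 36.1, 29.2 and 36.4 CPM in LRG1 libraries, a 1.68-fold fall. Dhx58, the related sensor LGP2, fell 1.87-fold. At week 10 Ifih1 had 38.6, 44.9, 37.8 and 42.6 CPM in eGFP and 37.4, 34.8, 39.8 and 31.8 CPM in LRG1 libraries, and these ranges overlapped. None of the 3 was called at week 10, with log2 fold changes from -0.19 to -0.06.

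In the OAS family, whose catalytic members make the oligoadenylate that activates RNase L, 5 of 6 members fell at week 7. Oas1a had 8.17, 6.35, 5.11 and 7.89 CPM in eGFP and 1.78, 2.75, 2.03 and 2.98 CPM in LRG1 libraries. All eGFP libraries were above all LRG1 libraries, a 2.88-fold difference (adjusted p = 4.2e-05). Oas3, Oas1g and Oasl2 fell by 1.92, 1.69 and 0.75 on the log2 scale. Oasl1, a catalytically inactive relative that restrains Irf7 translation, had 13.3, 16.1, 12.4 and 10.1 CPM in eGFP and 4.38, 5.57, 3.82 and 4.34 CPM in LRG1 libraries at week 7, again without overlap. At week 10 Oasl1 had 11.9, 4.52, 9.50 and 8.15 CPM in eGFP and 3.77, 5.19, 3.51 and 2.72 CPM in LRG1 libraries. It fell by 1.16 (SE 0.25, adjusted p = 0.0052), although eGFP replicate 2 lay inside the range of the LRG1 libraries. The fold change of Oas3 at week 10 was as large, -1.18, with an SE of 0.36 and an adjusted p of 0.027. Oas2 was called at neither week, its levels running from 2.94 to 7.15 CPM over the 16 libraries. Transcripts of Oas1a and Oas1g match at 97.58% over 1861 bases, and how reads that fit both were counted is not given in the sources used here, so their separate values are uncertain.

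The IFIT proteins, which bind viral RNA lacking host marks at its end, were lower in 3 of 4 members at week 7. Ifit3 had 37.5, 23.5, 18.1 and 29.6 CPM in eGFP and 6.35, 9.97, 7.03 and 11.3 CPM in LRG1 libraries. It fell 3.14-fold (adjusted p = 1.1e-04), with the lowest eGFP library above the highest LRG1 library. Ifit3b and Ifit1 fell 2.56-fold and 2.44-fold. Ifit2, whose 16 values ran from 13.5 to 34.1 CPM, had a log2 fold change of -0.57 that was not called (adjusted p = 0.027). At week 10 Ifit3 had 8.08, 12.6, 10.3 and 14.3 CPM in eGFP and 8.91, 9.34, 11.4 and 8.11 CPM in LRG1 libraries. The groups overlapped for every IFIT gene at week 10, and none was called. Transcripts of Ifit3 and Ifit3b match at 97.82% over 1700 bases, which leaves their split uncertain as well.

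Both Mx genes, dynamin-like GTPases that block viral nucleocapsids, fell at week 7. Mx1 had 6.13, 4.21, 5.01 and 6.15 CPM in eGFP and 2.28, 3.27, 1.56 and 2.15 CPM in LRG1 libraries, without overlap, and fell 2.32-fold (adjusted p = 4.5e-04). Mx2 fell 1.98-fold. At week 10 Mx1 had 1.502, 1.90, 1.46 and 1.97 CPM in eGFP and 2.20, 1.76, 2.04 and 1.59 CPM in LRG1 libraries. The 8 values of week 10 overlapped between the groups and lay below every eGFP value of week 7. The transcripts of the pair match at 94.79% over 921 bases.

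Among the other antiviral effectors, 5 of 7 fell at week 7. Rtp4, a chaperone of membrane receptors, had 42.9, 32.4, 27.7 and 39.8 CPM in eGFP and 6.59, 10.3, 7.08 and 8.98 CPM in LRG1 libraries. That is a fall by 2.12 on the log2 scale (SE 0.18, adjusted p = 6.4e-07), and the lowest eGFP library was well above the highest LRG1 library. At week 10 Rtp4 stood at 10.7, 9.70, 11.2 and 10.6 CPM in eGFP and 7.97, 7.88, 10.8 and 6.25 CPM in LRG1 libraries, with overlap and no call. Cmpk2, a mitochondrial nucleotide kinase, fell 2.90-fold at week 7. Bst2, the tetherin that holds budding virus at the membrane, fell 2.67-fold, Samd9l 1.97-fold and the RNA-editing enzyme Adar 1.75-fold. Rsad2 encodes viperin, and its values overlapped at both weeks, running from 6.68 to 22.9 CPM over all libraries.

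Isg20, an exonuclease that degrades single-stranded RNA, ran against the list. It had 6.74, 6.89, 7.23 and 7.07 CPM in eGFP and 10.8, 12.5, 10.4 and 12.3 CPM in LRG1 libraries at week 7. All LRG1 libraries were above all eGFP libraries, yet the log2 fold change of 0.72 (SE 0.20) was not called (adjusted p = 0.013). It was called higher in 9 of 27 alternative analyses, DESeq2, limma-voom and a fit of the week 7 libraries alone among them, and not in the other 18. At week 10 Isg20 had 5.06, 9.92, 5.33 and 11.3 CPM in eGFP and 10.95, 11.96, 13.5 and 10.3 CPM in LRG1 libraries. The 2 low values were those of eGFP replicates 1 and 3, and replicate 4 lay among the LRG1 libraries. The log2 fold change was 0.56 with all libraries and 0.14 without replicates 1 and 3.

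All 5 members of the ISG15 conjugation and ubiquitin ligase group fell at week 7. Isg15, the ubiquitin-like modifier, fell by 2.27 (SE 0.35, adjusted p = 2.3e-04) from a low level, 2.36, 1.55, 1.41 and 1.47 CPM in eGFP and 0.286, 0.506, 0.227 and 0.379 CPM in LRG1 libraries. Its 763 counts over the 16 libraries may include reads of a near-identical copy, AC151275.1, which matches it at 95.23% over 482 bases and had 89 counts. Herc6, the mouse ligase for ISG15, had 30.6, 17.6, 19.6 and 26.9 CPM in eGFP and 6.40, 9.47, 5.73 and 7.86 CPM in LRG1 libraries, a 3.22-fold fall without overlap. Usp18, which removes ISG15 and dampens the receptor, fell 1.97-fold, and Trim25, a ligase for RNA sensors, 1.74-fold. Trim30a, a ligase that restrains NF-kappaB signalling, had 45.8, 38.3, 34.3 and 38.9 CPM in eGFP and 19.97, 26.6, 16.4 and 23.2 CPM in LRG1 libraries at week 7. At week 10 Trim30a had 34.8, 27.0, 36.8 and 28.5 CPM in eGFP and 20.1, 22.6, 23.99 and 20.02 CPM in LRG1 libraries. Those ranges did not overlap, while the adjusted p was 0.012, and its transcript matches Trim30d at 90.11% over 1719 bases.

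The ADP-ribosyltransferases and the ligase Dtx3l all fell at week 7. Parp14 had 179, 113, 129 and 155 CPM in eGFP and 50.2, 54.3, 36.0 and 48.7 CPM in LRG1 libraries. It fell 3.05-fold (adjusted p = 6.2e-07), with all eGFP libraries above all LRG1 libraries. At week 10 Parp14 was at 77.1, 74.4, 77.3 and 75.6 CPM in eGFP and 52.0, 54.9, 59.7 and 54.3 CPM in LRG1 libraries, still without overlap but at an adjusted p of 0.019. Parp12, which localises to stress granules, had 59.7, 51.9, 47.0 and 53.3 CPM in eGFP and 26.2, 29.5, 24.9 and 27.6 CPM in LRG1 libraries at week 7. At week 10 Parp12 had 40.3, 34.3, 42.8 and 37.1 CPM in eGFP and 24.6, 28.5, 27.3 and 25.5 CPM in LRG1 libraries. It did not overlap at either week, falling 1.96-fold and then 1.46-fold (adjusted p = 0.0015 at week 10). Parp9 and Dtx3l, which act as a complex, fell 1.84-fold and 2.07-fold at week 7 and overlapped at week 10. They share 458 exon bases on opposite strands of chromosome 16, and since the strand setting of the counting is not given in the sources used here, reads there cannot be assigned to either.

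Of the mitochondrial and apoptosis-linked members only Xaf1 was called. Xaf1, which counters an inhibitor of apoptosis, had 79.2, 60.3, 53.1 and 70.0 CPM in eGFP and 25.7, 33.0, 28.6 and 36.9 CPM in LRG1 libraries at week 7, without overlap, and fell 2.11-fold (adjusted p = 1.8e-04). Ifi27 had 127, 124, 117 and 121 CPM in eGFP and 116, 127, 139 and 133 CPM in LRG1 libraries at that week, with overlap and a log2 fold change of 0.08. At week 10 Ifi27 had 79.7, 121, 91.3 and 123 CPM in eGFP and 122, 137, 136 and 121 CPM in LRG1 libraries. Its low values were again eGFP replicates 1 and 3, and the log2 fold change of 0.31 was not called (adjusted p = 0.065). Ifi27l2a ran from 40.0 to 139 CPM and was called at neither week, its 4 LRG1 libraries of week 7 lying below the 4 eGFP libraries (log2 fold change -0.77, adjusted p = 0.063). Per kilobase of gene length Ifi27l2a was the most abundant member in each of the 4 groups, with a mean over all libraries of 167 CPM per kb. Lgals3bp was above Ifi27 in the eGFP groups (122 against 83.3 CPM per kb at week 7 and 85.3 against 70.8 at week 10) and below it in the LRG1 groups (44.4 against 87.8 and 54.3 against 87.8).

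In the nuclear group 3 of 4 members fell at week 7. Phf11b, a zinc-finger protein, showed a fall by 2.30 (SE 0.21, adjusted p = 2.0e-06), with 12.5, 10.98, 7.71 and 11.3 CPM in eGFP and 1.72, 2.72, 1.61 and 2.58 CPM in LRG1 libraries. No LRG1 library reached the lowest eGFP library. Phf11b shares 96.99% identity over 864 bases with Phf11a and lies in a family of similar genes, so its counts are uncertain. Sp100, a component of PML nuclear bodies, had 82.8, 64.9, 57.9 and 72.8 CPM in eGFP and 32.4, 37.5, 25.9 and 36.4 CPM in LRG1 libraries at week 7. At week 10 Sp100 had 56.6, 47.1, 57.8 and 50.7 CPM in eGFP and 31.5, 35.3, 42.7 and 34.8 CPM in LRG1 libraries. Neither week overlapped, and the falls were 2.10-fold and 1.47-fold (adjusted p = 0.0078 at week 10). Ifi35 fell 1.69-fold at week 7. Helz2, a nuclear receptor coactivator, ran from 19.1 to 25.8 CPM and overlapped at both weeks.

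The 4 remaining members all fell at week 7, and 2 of them at week 10. Lgals3bp, a secreted glycoprotein that binds galectin, was the most significant member of the list, with 384, 338, 295 and 375 CPM in eGFP and 122, 135, 119 and 130 CPM in LRG1 libraries. It fell 2.75-fold (adjusted p = 3.0e-07). At week 10 Lgals3bp had 243, 195, 278 and 255 CPM in eGFP and 155, 147, 176 and 141 CPM in LRG1 libraries. The groups stayed apart and the fall was 1.57-fold (adjusted p = 0.0019). Epsti1 fell 2.57-fold and then 1.53-fold, with an adjusted p of 0.0099 at week 10. Ifi44 fell 2.56-fold and Tor3a, an endoplasmic reticulum ATPase, 1.53-fold at week 7, and neither was called at week 10.

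**Figure D3:**
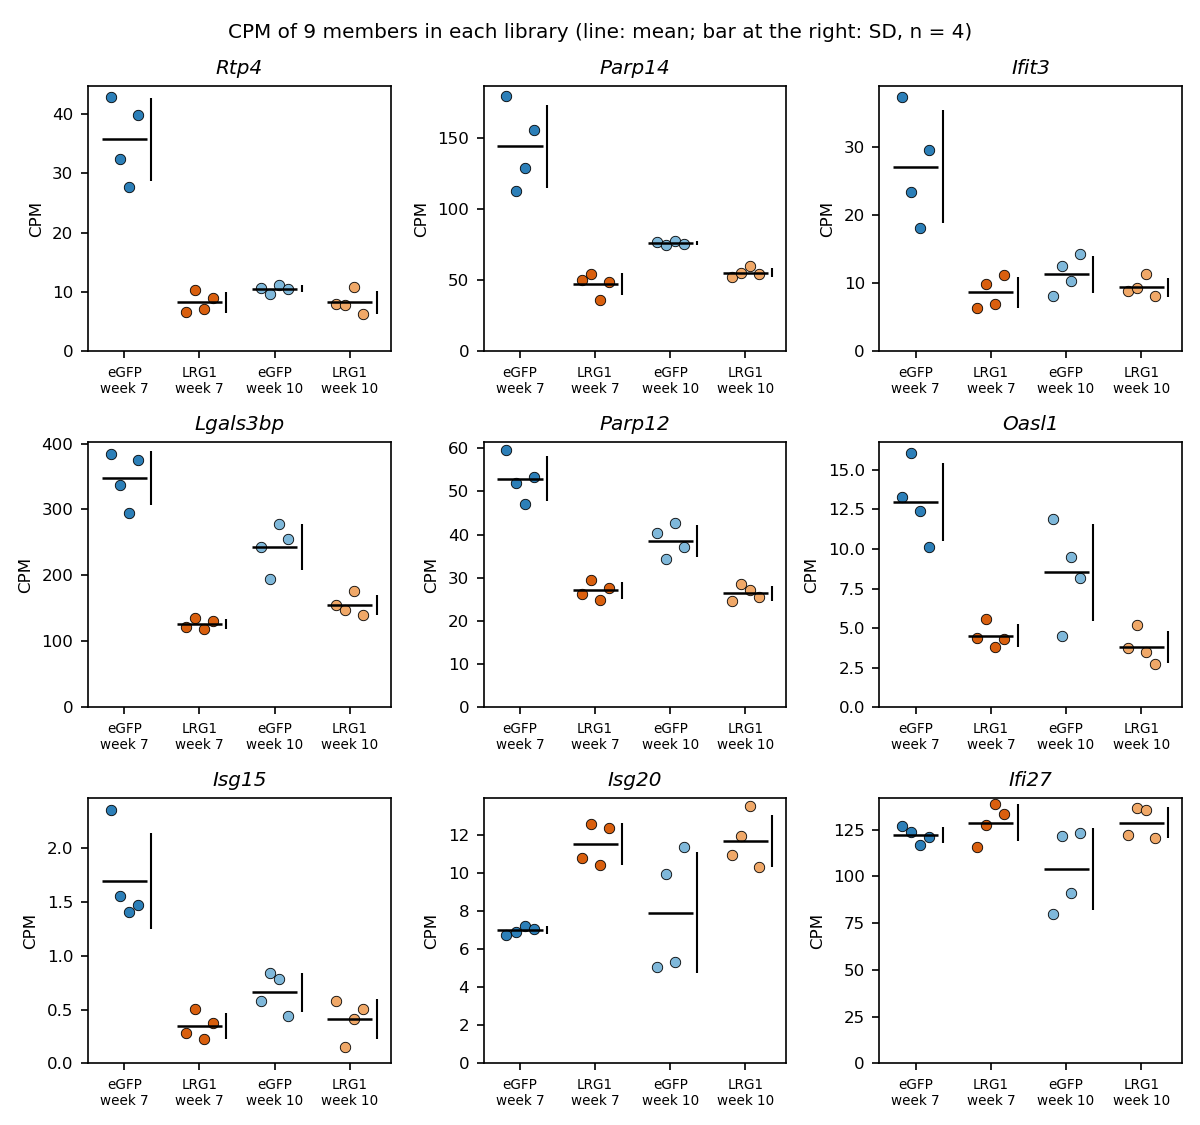
CPM of 9 members in each library (dots), with the mean of the 4 libraries as a line and the SD as a bar at its right, for eGFP and LRG1 at weeks 7 and 10. Rtp4, Parp14, Ifit3 and Isg15 are highest in the eGFP libraries of week 7, Parp14, Lgals3bp and Parp12 are higher in eGFP without overlap at week 10 too, and Isg20 and Ifi27 do not share this pattern.

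The number of members called at week 10 changed with the libraries included, and the cause was not tested. Without eGFP replicates 1 and 3 of week 10 the edgeR test called 0 members at that week, with 14 at an unadjusted p below 0.05, and DESeq2 was not run without them. Over all genes the edgeR fit without them called 74 lower and 87 higher, against 1092 and 762 with all libraries. The median log2 fold change of the members was -0.29 in it. With all libraries it was -0.19, and 15 members had an unadjusted p below 0.05. In the fit without eGFP replicates 1 and 3 of week 10, Parp12 and Lgals3bp had log2 fold changes of -0.43 and -0.54. Their edgeR adjusted p were 0.020 and 0.019. Oasl1, Sp100 and Epsti1 had log2 fold changes of -0.74, -0.44 and -0.55 in that fit. Leaving out 1 library at a time, 2 members were called without eGFP replicate 1 or 3 of week 10 or LRG1 replicate 1 or 3 of week 10, and 1 without LRG1 replicate 4. The count was 3 without LRG1 replicate 2 of week 10, eGFP replicate 2 or 4 of week 7, or LRG1 replicate 1 or 4 of week 7, and 8 without eGFP replicate 2 of week 10. Calls over all genes at week 10 moved as well. They were 125 lower and 159 higher without LRG1 replicate 4 of week 10, and 2046 and 1601 without eGFP replicate 2. At week 7 the count stayed between 31 and 36.

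**Figure D4:**
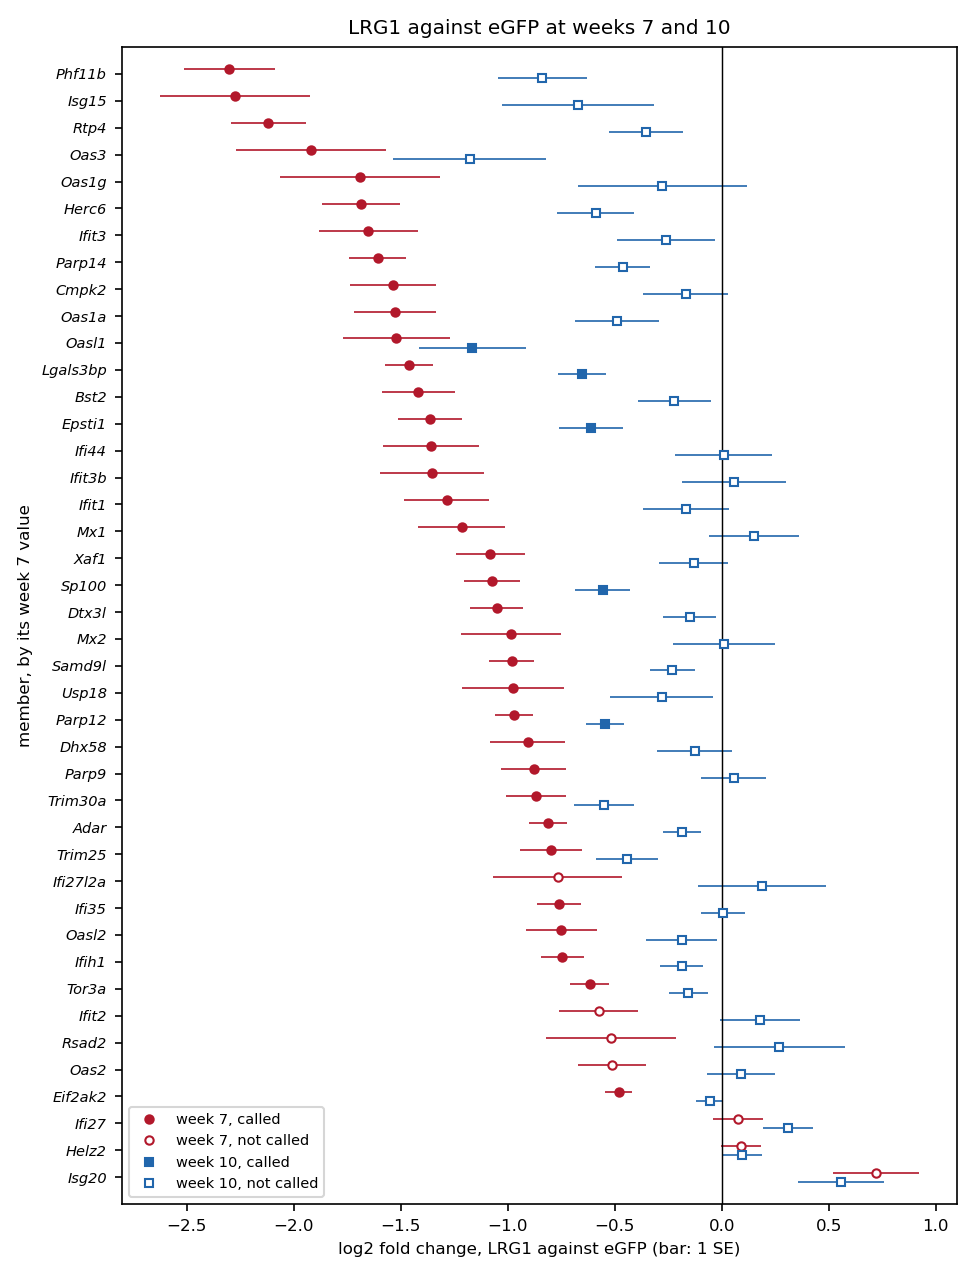
Log2 fold change of LRG1 against eGFP with 1 SE for each of the 42 members at week 7 (circles) and week 10 (squares), filled where the edgeR adjusted p was below 0.01. Filled circles number 35 and filled squares 5, and the week 10 values lie nearer to 0 for most members.

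The difference between the effects of the 2 weeks was tested as an interaction. The log2 fold change was higher at week 10 than at week 7 in 41 of 42 members, with Isg20 as the exception, and the median difference was 0.78 on the log2 scale. Only Rtp4 (1.76, SE 0.24, adjusted p = 0.0014) and Parp14 (1.14, SE 0.18, adjusted p = 0.0052) passed the threshold, where 0.307% of all tested genes were called higher and 0.0192% lower. The next 3 by adjusted p were Ifi35 (0.76, adjusted p = 0.017), Dtx3l (0.90, adjusted p = 0.018) and Lgals3bp (0.81, adjusted p = 0.018). In Ifi27 and Helz2 it was above 0 at both weeks, 0.08 and 0.31 for Ifi27 and 0.09 at each week for Helz2. Ifi35 had 22.2, 21.1, 18.6 and 20.9 CPM in eGFP and 11.4, 13.5, 12.3 and 11.7 CPM in LRG1 libraries at week 7, and 11.1, 13.4, 9.81 and 13.4 against 12.9, 11.3, 12.7 and 11.1 CPM at week 10. Dtx3l went from 114, 90.5, 84.6 and 105 against 43.3, 50.8, 46.7 and 49.3 CPM at week 7 to 56.4, 80.6, 57.3 and 80.3 against 57.1, 63.9, 65.5 and 61.1 CPM at week 10. Both were separated at week 7 and overlapped at week 10. Without eGFP replicates 1 and 3 of week 10, 5 members were called, Adar, Dtx3l and Lgals3bp being added. Over all genes that fit called 182 lower and 284 higher, against 4 and 64 with all libraries. Leaving out 1 library gave 5 members without eGFP replicate 3 of week 7, and 1 without eGFP replicate 4 or LRG1 replicate 1 or 4 of week 7, eGFP replicate 1 or 3 of week 10, or any LRG1 library of week 10. Rtp4 was called in each of those 16 fits and Parp14 was lost in 10.

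Within the eGFP mice a part of the members fell from week 7 to week 10. In this comparison, which shares its eGFP libraries with those above, 16 members fell and 0 rose, where 1.51% of all tested genes were called lower and 0.629% higher, and the median log2 fold change was -0.64. In 33 members all week 10 libraries lay below all week 7 libraries, beside 6.89% of all tested genes lower and 4.08% higher. Rtp4 fell by 1.76 (adjusted p = 5.5e-05), Mx1 by 1.65 (adjusted p = 2.9e-04) and Oas1a by 1.34 (adjusted p = 7.1e-04). The others that fell were Oas2, Ifit1, Ifit3, Cmpk2, Bst2, Adar, Herc6, Parp12, Parp14, Xaf1, Phf11b, Ifi35 and Ifi44. The count was 5 without eGFP replicate 1 or 4 of week 7, and 9 without eGFP replicate 2 of week 7 or eGFP replicate 1, 3 or 4 of week 10. Without eGFP replicates 1 and 3 of week 10 it was 17 lower and 1 higher, Isg20 at a log2 fold change of 0.60. Over all genes that fit called 1146 lower and 1063 higher, against 315 and 131 with all libraries. Calls over all genes were 151 and 29 without eGFP replicate 1 of week 7, and 176 and 46 without replicate 4.

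Within the LRG1 mice 0 members were called between the weeks by edgeR or by DESeq2, and 6 had an unadjusted p below 0.05 in edgeR. In this comparison 0.0048% of all tested genes were called lower and 0.0048% higher, and the median over the members was 0.13. The 6 were Eif2ak2, Samd9l, Parp9, Dtx3l, Ifi27l2a and Lgals3bp, with log2 fold changes from 0.18 to 0.70, and in these 6 members all week 10 libraries lay above all week 7 libraries. That separation held for 3.64% of all tested genes higher and 3.41% lower.

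Markers of leukocytes were lower in LRG1 mice at both weeks, the members mainly at week 7. All 12 pan-leukocyte markers were lower in LRG1 at both weeks, with median log2 fold changes of -1.62 and -1.33. Their summed level was 1948 to 2474 CPM in eGFP and 593 to 841 CPM in LRG1 libraries at week 7, and 1036 to 2989 against 601 to 882 CPM at week 10. Of 12 macrophage markers, 11 and 9 were lower, with sums of 4287 to 5501 against 2021 to 2298 CPM and then 2867 to 6623 against 1930 to 2545 CPM. All 8 T cell markers were lower at week 7 (38.0 to 74.2 against 5.67 to 15.4 CPM) and 3 at week 10 (19.3 to 27.4 against 7.90 to 15.2 CPM). The 6 markers of plasmacytoid dendritic cells, known as strong producers of type I interferon, summed to 3.37 to 7.41 CPM over all libraries, and 1 was lower at week 7 and 0 of 6 at week 10. In the same comparisons 5 of 6 endothelial and 2 of 10 adipocyte markers were higher at week 7, 0 and 2 at week 10, and of 5 mesothelial markers 0 were called at either week. Of all tested genes 10.7% were called lower and 7.37% higher at week 7, and 5.24% and 3.66% at week 10. Without eGFP replicates 1 and 3 of week 10, the markers lower at that week numbered 1 of 12 for pan-leukocyte (Vav1, median -0.73), 5 of 12 for macrophage (median -0.78) and 0 of 8 for T cell, with 12, 11 and 7 at an unadjusted p below 0.05 in edgeR. That fit called 74 of all genes lower and 87 higher, against 1092 and 762 with all libraries. DESeq2 was not run on the marker lists, and 1 of 10 adipocyte markers, Lep, was then higher. No marker list had a gene at 0 in all libraries. In bulk tissue fewer cells of a type and less RNA per cell cannot be told apart, and the part of these cells in the result was not tested.

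Between the weeks of the eGFP mice the values of the leukocyte markers depended on those 2 libraries. Of 12 pan-leukocyte markers 1 was lower at week 10 (median -0.08), of 12 macrophage markers 2 (median -0.33) and of 8 T cell markers 2 (median -1.47), beside 16 of 42 members (median -0.64). Without replicates 1 and 3 of week 10 the counts were 10 of 12 (median -0.84), 7 of 12 (median -0.56) and 2 of 8 (median -1.51). Over all genes that fit called 1146 lower and 1063 higher, against 315 and 131 with all libraries. The mean log2 CPM of the pan-leukocyte markers was 7.30 and 7.35 in replicates 1 and 3, just above the 6.91 to 7.28 of eGFP at week 7, and 6.02 and 6.38 in replicates 2 and 4, below that range. The member means of all 4 replicates, 3.59 to 3.75, lay below the 4.22 to 4.66 of eGFP at week 7. The share of counts on mitochondrial ribosomal RNA also differed at week 7, at 24.1% to 25.9% in eGFP and 27.1% to 30.4% in LRG1 libraries, and with mitochondrial genes removed before scaling 35 members were still called.

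**Figure D5:**
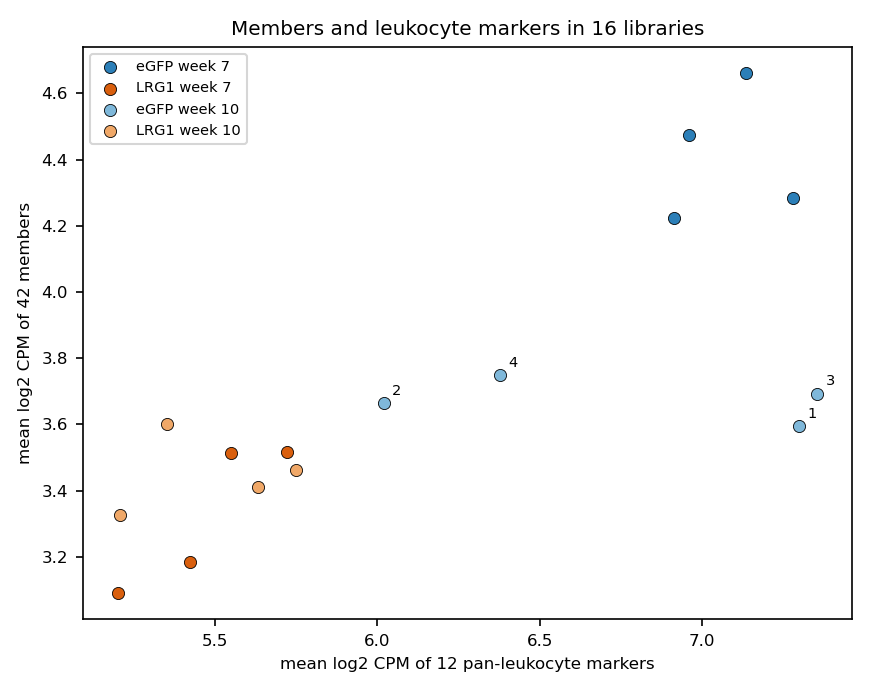
Mean log2 CPM of the 42 members (vertical axis) against that of 12 pan-leukocyte markers (horizontal axis) in each of the 16 libraries, coloured by group, with the eGFP libraries of week 10 numbered by replicate. The eGFP libraries of week 7 are at the top right, the 8 LRG1 libraries at the lower left, and eGFP replicates 1 and 3 of week 10 have high marker and low member values.

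The pathway upstream of the members was described from 48 listed genes, of which 30 could be tested. At week 7, 20 of the 30 fell and 0 rose, beside 10.7% of all tested genes called lower and 7.37% higher. At week 10 the 5 that fell were Il10rb, Pias1, Tmem173, Tlr7 and Tbk1, beside 5.24% of all tested genes called lower. Of these 5 genes Tlr7 alone was called without eGFP replicates 1 and 3 of week 10. Stat2, Irf9 and Irf7, factors of the type I response, fell by 1.16, 0.87 and 0.80 on the log2 scale at week 7, Irf1 by 1.76 and the kinase Tyk2 by 0.78. None of these 5 was called at week 10. Of 6 receptor chains Ifnar1 and Ifngr2 fell, by 0.34 and 0.47, and of 11 sensors and adaptors 9 fell at week 7. Between the weeks of the eGFP mice, 7 of the 30 fell, with Stat2, Irf7, Irf1, Ddx58, Tlr9 and Ifng among them. Of all tested genes 1.51% were called lower there.

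Transcripts of the ligands were scarce. Of 20 ligand genes, 13 had 0 counts in every library, Ifnb1 and 10 Ifna genes among them, which allows up to 0.0444 to 0.0661 CPM per library (3 counts of the library total, counting error only). Ifna9, Ifna13, Ifna14 and Ifnab did not exceed 0.0338 CPM and Ifne 0.0671 CPM. Ifnk reached 0.469 CPM and was not called. Ifng, the type II interferon, had 1.36, 1.24, 0.692 and 1.88 CPM in eGFP libraries of week 7, while in LRG1 libraries it had 0.0338 and 0.0861 CPM in replicates 2 and 4 and 0 counts in replicates 1 and 3.

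Genes known for induction by interferon-gamma, such as the guanylate-binding proteins and immunoproteasome subunits, had a lower median log2 fold change than the members at both weeks. All 23 of the comparator list fell at week 7 with a median of -3.07, among them Psmb8 (-2.71), Ciita (-2.69) and Nlrc5 (-1.63), and 17 fell at week 10 with a median of -1.19 (9 and -1.16 without eGFP replicates 1 and 3 of week 10). Of all tested genes 10.7% were called lower at week 7 and 5.24% at week 10. Their difference between the weeks was called in 12 of the 23 comparator genes, beside 0.307% of all tested genes called higher. Between the weeks of the eGFP mice 21 of the 23 fell with a median of -1.67, beside 1.51% of all tested genes. The members and the comparator rest on the same libraries, and both lists were chosen with earlier results of these data known. The difference between the lists was not tested.

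Set beside the promoter sequences, 12 of the 13 members with an ISRE match fell at week 7, Rsad2 being the exception, with a median log2 fold change of -1.42. Of the 18 members with a window but no match 15 fell, with a median of -1.02. At week 7, 10.7% of all tested genes were called lower, and at week 10 5.24%. Of the members, 0 of the 13 and 5 of the 18 fell at week 10, Oasl1, Parp12, Sp100, Lgals3bp and Epsti1. Those 5 calls held in 20, 26, 15, 25 and 8 of 28 alternatives. With a match, Trim30a was called in 8, Phf11b in 6 and Oas3 in 3, so the split depends on the processing and the libraries included. These are descriptions of a window of 300 bases, and the 11 members without one (Oas2, Mx1, Mx2, Parp9, Parp14, Ifi27, Ifi27l2a, Tor3a, Rtp4, Usp18 and Dhx58) are not among them.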

How the data were processed

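RNA from the eWAT of 16 mice was sequenced, and the authors trimmed reads with cutadapt, aligned them with STAR to mm10 (GRCm38) and counted them per gene with featureCounts. Versions, strand and multi-mapping settings are not given in the sources used here. The deposited counts are whole numbers without normalization.

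Counts were filtered with filterByExpr, scaled by TMM and fitted across all 16 libraries with the quasi-likelihood test of edgeR 4.0.16 in R 4.3.3, after it had been tested on simulated data. Adjusted p-values (Benjamini-Hochberg) cover the 20822 genes tested, in 5 comparisons, and a gene was called below 0.01. SEs are the log2 fold change divided by the square root of F, and mean log2 CPM used a prior count of 2. DESeq2 1.42.0 and limma-voom (limma 3.58.1) were alternatives, with other scalings, filters, libraries and a replicate block. The labels number the replicates without naming a cage or batch, so p-values measure only the spread between these samples.

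Groups came from the labels. Motifs were searched in RefSeq promoters (GRCm38.p6), and copies were found with BLAST 2.17.0. Values in every library are given, within each role, for the member with the smallest adjusted p at each week, for members called against the majority and for up to 5 members by the difference between weeks; further members were added after their values were seen. Members, lists and roles were chosen with earlier results of these data known. The values of 1 listed pathway gene are not reported here.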

Additional observations from a re-analysis of the deposited data

Results flagged for a closer look

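In 5 of 168 groups of 4 libraries, tested on the scale of log2(CPM + 0.1), 1 library of a member stood apart from the other 3 by Dixon's criterion, which chance meets in about 1 in 20 groups. LRG1 replicate 3 of week 10 had the lowest Dhx58 level of its group, 3.35 CPM. LRG1 replicate 4 of week 10 had the lowest Oas1g level, 0.198 CPM, and the lowest Phf11b level, 1.93 CPM. The lowest Cmpk2 level of eGFP at week 10 was 4.77 CPM, in replicate 1. Ifi27l2a was highest in LRG1 replicate 2 of week 10, at 139 CPM.

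The effect of LRG1 differed between the weeks in 2 members by the interaction test of edgeR. The difference was 1.76 on the log2 scale for Rtp4 and 1.14 for Parp14, both less negative at week 10.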

How the results depend on the processing

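No member that was called changed direction under any alternative. Of 1134 values at week 7, 1099 kept their side of the threshold, as did 1106 of 1176 at week 10. At week 7 between 31 and 39 members were called throughout, and between the weeks of the LRG1 mice 0 by every alternative run. The count at week 10, 5, was 10 by DESeq2, 3 by limma-voom, 0 with only the libraries compared (13 at an unadjusted p below 0.05), 11 at an adjusted p below 0.05, and 0 without eGFP replicates 1 and 3 of week 10, an analysis chosen after seeing the data. Calls over all genes, 1092 lower and 762 higher, moved too. They were 1978 and 1587 by DESeq2, 639 and 804 by limma-voom and 10 and 2 with only the libraries compared. At an adjusted p below 0.05 they were 2615 and 2146, and without those replicates 74 and 87. The count for the difference between the weeks, 2, was 6 with library size only, 4 with no filter, 18 by DESeq2, 12 at an adjusted p below 0.05 and 5 without those replicates. Over all genes, 4 lower and 64 higher became 3 and 119 with library size only and 6 and 98 with no filter. DESeq2 called 40 and 234, the threshold of 0.05 gave 18 and 178, and the fit without those replicates 182 and 284. The count between the weeks of the eGFP mice, 16, was 27 by DESeq2, 2 with only the libraries compared and 28 at an adjusted p below 0.05. Over all genes, 315 lower and 131 higher became 617 and 462, 85 and 24, and 741 and 479 in the same order. Leaving out 1 library, the counts ran from 31 to 36 at week 7, 1 to 8 at week 10, 1 to 5 for the difference and 5 to 16 for the eGFP weeks. With the replicate block they were 34, 3, 0 (33 at an unadjusted p below 0.05) and 6. Calls over all genes with the block, lower then higher, were 1978 and 1270, 642 and 532, 2 and 33, and 202 and 56. Same-numbered libraries did not deviate together (median correlation -0.0126, from -0.200 to 0.142, over 24 pairs). The labels do not say whether the numbers pair the mice, and this correlation cannot decide it. Library size alone moved the median of all genes by -0.16 at week 7, 0.15 for the difference and -0.11 for the eGFP weeks. Among the 5 members called at week 10, the call held in 26 of 28 alternatives for Parp12, 25 for Lgals3bp, 20 for Oasl1, 15 for Sp100 and 8 for Epsti1. The cause of these changes was not tested. At these depths Isg15, Oas1g and Oas3 rest on few counts.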
